A study of Mus musculus with 2 samples.

Results

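The clustered protocadherins, cell surface adhesion proteins of the cadherin family, were followed in RNA sequencing of mouse telencephalon with and without a conditional deletion of the histone variant H2A.Z. Members were the genes whose Ensembl identifier maps to a symbol of the Pcdha, Pcdhb, Pcdhga, Pcdhgb, Pcdhgc or Pcdhac series, with no minimum level. They numbered 53 of the 19202 genes measured: 11 of the alpha cluster, 21 of the beta cluster and 21 of the gamma cluster. Pcdha1, Pcdha4, Pcdhb1 and Pcdhga10 carry member symbols too and were not analysed here.

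The groups were H2AZcKO, a conditional knockout of H2AZ, and H2AZfl/fl, whose floxed allele can be deleted but is read here as undeleted. Both were embryonic day 12 tissue on the C57BL/6 background, labelled telencephalic in one place and described as dissected cerebral cortex in the extraction protocol. Each genotype had 1 column of read counts, called a library here. The sources used here name neither the Cre driver, and so the cells that carry the deletion, nor the exons deleted. The design text speaks of triplicates without saying whether a column pools embryos. With 1 library per genotype no test of the genotype could be run, and none of the differences below has a replicate check.

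In neurons each clustered protocadherin is read from its own promoter, and a neuron uses a small, largely random choice of the alternative promoters of each cluster. The proteins bind copies of themselves on other cells, so the chosen set acts as a cell surface label by which the branches of one neuron recognise and avoid each other. In the alpha and gamma clusters a variable exon, which encodes the outer part of the protein, is spliced to constant exons that encode a shared inner tail. Beta genes have no constant exons. The C-type genes at the end of the alpha and gamma clusters are known to be used by most neurons rather than by random choice. The DNA-binding protein CTCF and the cohesin ring are known to bring these promoters to distant enhancers.

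All 53 genes lie in line on the plus strand of chromosome 18, in deposited positions that match GRCm38 for every member. The alpha members begin with Pcdha2 at 36939205 and end together at 37187657. The beta members run from Pcdhb2 at 37294812 to the end of Pcdhb22 at 37524479, and the gamma members from Pcdhga1 at 37661793 to 37841873. In GENCODE M21 the exons of all 11 alpha members share 3 stretches of 59, 89 and 2712 bases, and those of all 21 gamma members share 3 stretches of 59, 89 and 1968 bases. A read from such a stretch cannot be given to 1 member. The sources used here do not say how the authors' counting treated it. An alpha or gamma count therefore stands for the variable exon with an unknown share of constant-exon reads. Levels between genes are therefore given per kilobase of exon bases that no other annotated gene shares.

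The H2AZ cKO library held 8839840 counts and the H2AZ fl/fl library 8891198, which were scaled with TMM factors of 0.986 and 1.01. H2afz, the targeted gene, stood at 191 CPM, counts scaled to a common library size, in the H2AZ cKO against 289 CPM in H2AZ fl/fl, a ratio of 0.661 (0.621 to 0.703). Here and below the range after a ratio is an exact 95% binomial (Clopper-Pearson) interval from the counts, which covers counting error only. The libraries also differed in sex-linked transcripts: Xist, the X-inactivation transcript, stood at 732 CPM in the H2AZ cKO against 22.2 CPM in H2AZ fl/fl, and 4 Y-linked genes summed to 8 counts in the H2AZ cKO against 1716 in H2AZ fl/fl. With 1 library each, differences that go with sex and those that go with genotype cannot be told apart in any ratio below. Over the 14586 genes at 1 CPM or more in at least 1 library, the median log2 ratio was 0.01. Log2 ratios are H2AZ cKO over H2AZ fl/fl on the log2(CPM + 1) scale, which understates differences at low counts.

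Taken as a whole the family was lower in the H2AZ cKO. Over the 53 members there were 1568 counts in the H2AZ cKO and 1974 in H2AZ fl/fl, or 179.9 CPM against 218.9 CPM, a ratio of 0.822 (0.769 to 0.879). Of the 53 members 39 had a ratio below 1 and 14 above 1, where 46.9% of all 19202 genes were below 1 (49% of those at 1 CPM). Under each of the 3 other scalings 41 members were below 1 and 12 above. Of the 14586 genes at 1 CPM or more, 7749 to 8170 were then below 1, against 7143 with TMM. With a trend on transcript length, GC content and level removed 34 members were below and 19 above. Of the alpha members 5 of 11 were then above. The trend was fitted over genes at 1 CPM or more and extended to the 12 members below that level. Only 4 of the 11 alpha members reached it. All 3 clusters stood below 1, with the alpha cluster at 0.698 (0.525 to 0.923), the beta cluster at 0.774 (0.670 to 0.894) and the gamma cluster at 0.849 (0.784 to 0.918). These intervals overlap one another, so the order of the 3 clusters is within counting error. In bulk tissue fewer cells that express a gene and less RNA per cell cannot be told apart.

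**Figure D1:**
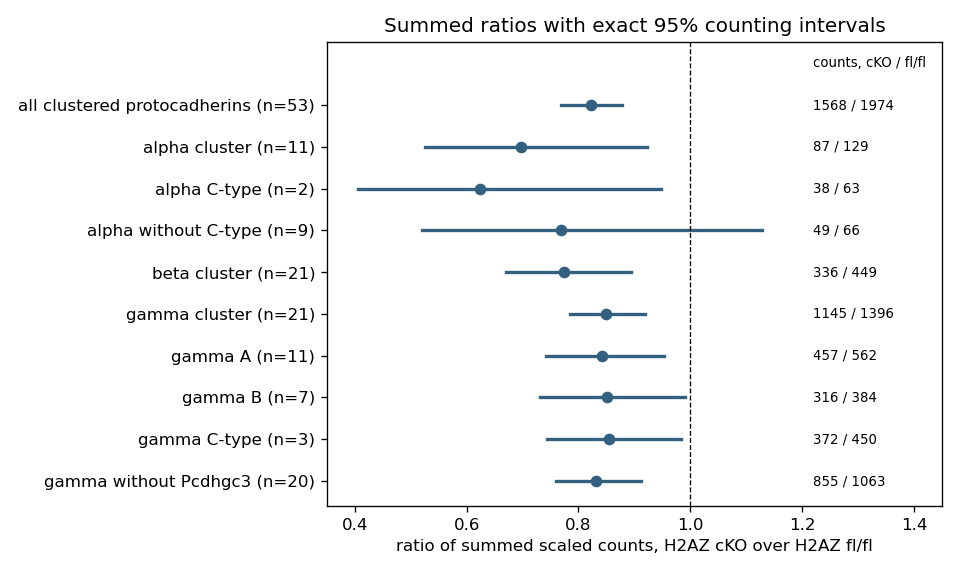
Ratio of summed scaled counts, H2AZ cKO over H2AZ fl/fl, for the family, its 3 clusters and their subgroups, with exact 95% counting intervals (bars) and the summed counts at the right. Every set has a point below 1, and only the interval of the alpha members without the C-type genes (0.520 to 1.13) crosses 1.

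The genes were sparsely read, which sets what can be seen of single members. The median member had 19 counts in the H2AZ cKO and 25 in H2AZ fl/fl, and 12 members had fewer than 10 counts in both. Only 6 members reached 50 counts in both libraries. Of the 53, 41 reached 1 CPM in the higher library: 4 alpha, 16 beta and 21 gamma members. At 1.5-fold on the log2(CPM + 1) scale 6 members were lower and 0 higher, with or without that minimum level. Among all genes at 1 CPM or more 3.03% were 1.5-fold lower and 1.92% higher, and with no minimum 2.84% and 1.85%. The counting interval lay wholly below 1 for 6 members and wholly above 1 for 0, beside 8.69% and 9.67% of all genes (11.2% and 12.6% of those at 1 CPM). The members' 6 intervals below 1 are near the share found among all genes, and their 0 above 1 is under it. Neither the interval counts nor the 6 at 1.5-fold are set against a background of like level. The genes at 1 CPM had a median of 28.5 CPM, and the members medians of 2.18 CPM (H2AZ cKO) and 2.77 CPM (H2AZ fl/fl). The part of this low level in both kinds of count was not tested. The 6 at 1.5-fold became 1 with the trend on length, GC and level removed and 0 with a pseudocount of 5 CPM.

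**Figure D2:**
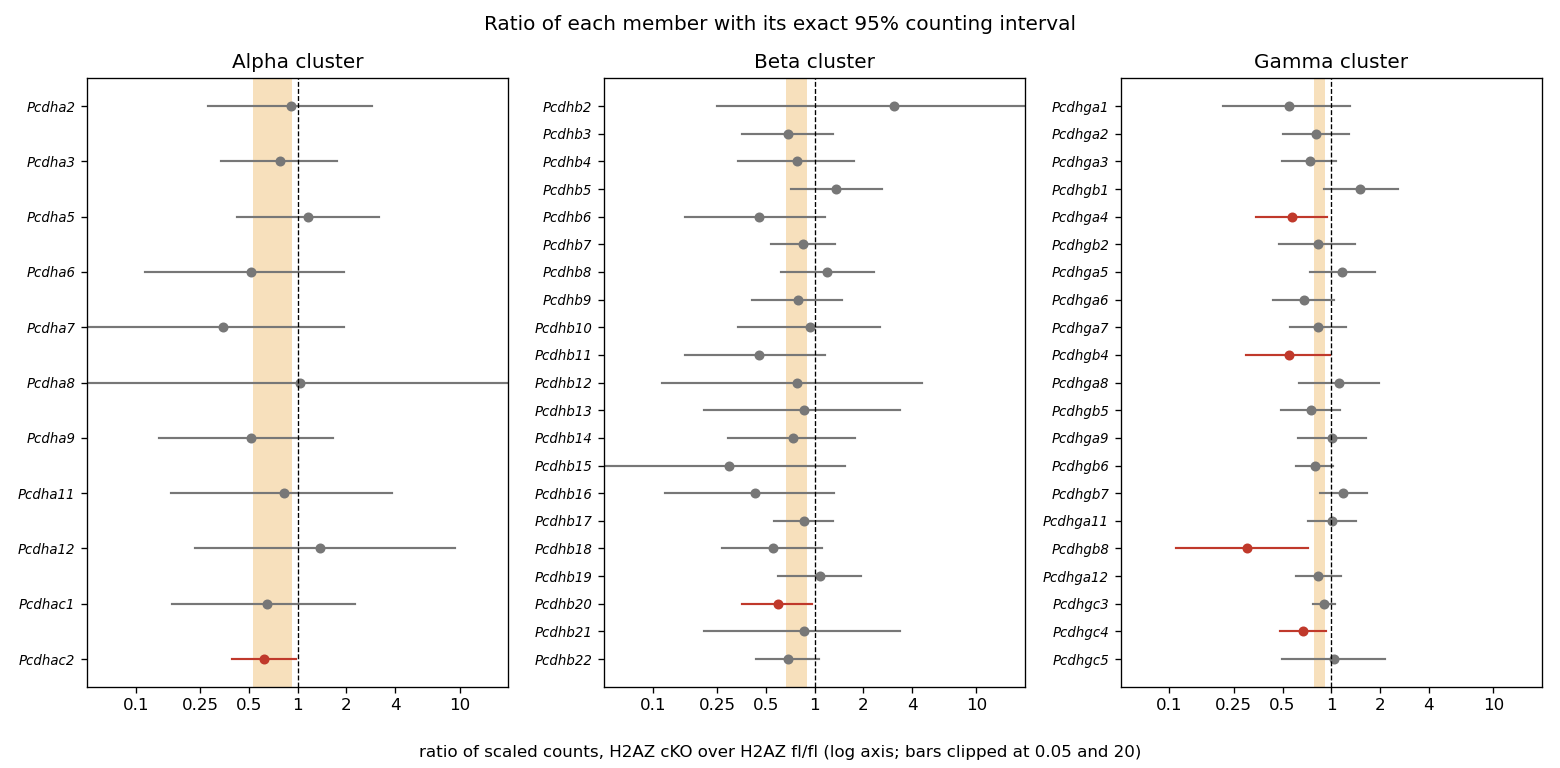
Ratio of each member, H2AZ cKO over H2AZ fl/fl, on a log axis in chromosomal order, with exact 95% counting intervals clipped at the axis ends. Red marks the 6 intervals wholly below 1 and the shaded band is the interval of the cluster's summed ratio (0.525 to 0.923 for alpha, 0.670 to 0.894 for beta, 0.784 to 0.918 for gamma).

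The alpha cluster was the most weakly read, at 87 counts in the H2AZ cKO and 129 in H2AZ fl/fl. Pcdhac2, a C-type gene known for its part in the spacing of serotonergic axons, carried the largest number of these. It had 33 counts (3.79 CPM) in the H2AZ cKO against 55 counts (6.10 CPM) in H2AZ fl/fl, a ratio of 0.621 (0.391 to 0.973) and a log2 ratio of -0.57. This interval ended just under 1 and was the only alpha interval that did. Pcdhac1, the other alpha C-type gene, had 5 counts in the H2AZ cKO against 8 in H2AZ fl/fl, a ratio of 0.647 (0.166 to 2.24). The pair summed to a ratio of 0.624 (0.406 to 0.948).

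The 9 alpha members that are not C-type held 49 counts in the H2AZ cKO and 66 in H2AZ fl/fl, a ratio of 0.768 (0.520 to 1.13), so a difference was not detectable for them at this depth. Pcdha3 had 12 counts in the H2AZ cKO against 16 in H2AZ fl/fl (0.776, 0.335 to 1.75), and Pcdha5 had 10 against 9 (1.15, 0.420 to 3.20). The remaining 7 had 1 to 7 counts in the H2AZ cKO and 1 to 10 in H2AZ fl/fl. With Pcdha5, Pcdha12 was on the higher side at 4 counts in the H2AZ cKO against 3 in H2AZ fl/fl and Pcdha8 was level at 1 against 1, and the other 6 of the 9 were lower. None of the 11 alpha members differed by 1.5-fold on the log2 scale. Of the alpha counts Pcdhac2 took 37.9% (27.7 to 49.0) in the H2AZ cKO and 42.6% (34.0 to 51.6) in H2AZ fl/fl, shares that overlap.

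In serotonergic markers, given because Pcdhac2 acts in those neurons, the tissue was close to empty: Tph2, the enzyme of serotonin synthesis, had 3 counts in the H2AZ cKO and 9 in H2AZ fl/fl, and the serotonin transporter gene Slc6a4 had 2 and 1. The 5 genes of that list summed to 4.47 CPM in the H2AZ cKO against 6.65 CPM in H2AZ fl/fl. Only 2 of them reached 1 CPM, Ddc and Gata2, both below 1 with intervals that include it. Their part in the difference of Pcdhac2 was not tested.

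The beta cluster held 336 counts in the H2AZ cKO against 449 in H2AZ fl/fl. Of its 21 members 17 were below 1 and 4 above. These are genes of a single long exon in their main transcripts, so their counts carry no constant-exon reads, but their coding parts are alike. The most read was Pcdhb17, with 44 counts (5.05 CPM) in the H2AZ cKO against 53 counts (5.88 CPM) in H2AZ fl/fl, a ratio of 0.859 (0.562 to 1.31). Pcdhb22 followed with 35 in the H2AZ cKO against 53 in H2AZ fl/fl (0.683, 0.433 to 1.07), and Pcdhb7 with 37 against 45 (0.851, 0.535 to 1.34). All 3 leaned lower with intervals that include 1.

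Pcdhb20 was the 1 beta gene whose interval lay below 1. It had 28 counts (3.21 CPM) in the H2AZ cKO against 49 counts (5.43 CPM) in H2AZ fl/fl, a ratio of 0.591 (0.358 to 0.959) and a log2 ratio of -0.61. Pcdhb6 and Pcdhb11 also differed by 1.5-fold, each at 7 counts in the H2AZ cKO against 16 in H2AZ fl/fl, a ratio of 0.453 (0.158 to 1.16) and a log2 ratio of -0.62, with intervals that include 1. On the higher side stood Pcdhb5 at 25 in the H2AZ cKO against 19 counts in H2AZ fl/fl, Pcdhb8 at 22 against 19, Pcdhb19 at 26 against 25 and Pcdhb2 at 3 against 1. None of these 4 had an interval above 1. The highest log2 ratio among them was 0.32, of Pcdhb5.

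The other 11 beta members were all lower, with ratios from 0.296 for Pcdhb15 (2 counts in the H2AZ cKO against 7 in H2AZ fl/fl) to 0.931 for Pcdhb10 (9 against 10). Pcdhb18, at 14 in the H2AZ cKO against 26 counts in H2AZ fl/fl, and Pcdhb16, at 5 against 12, came close to 1.5-fold, with log2 ratios of -0.58 and -0.57. Their intervals (0.269 to 1.11 and 0.119 to 1.31) include 1. All 21 beta intervals hold the cluster's summed ratio of 0.774.

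**Figure D3:**
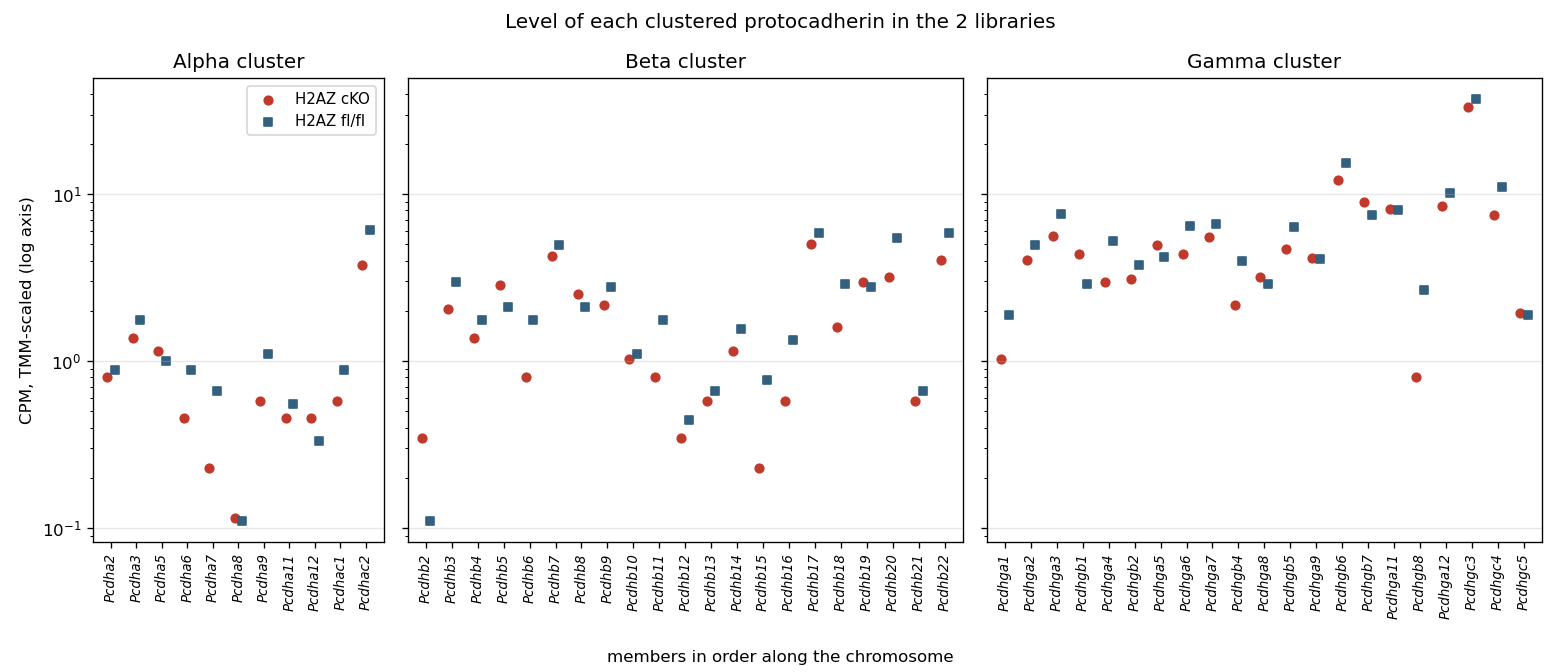
Scaled CPM of each member in the H2AZ cKO (circles) and in H2AZ fl/fl (squares), on a log axis in chromosomal order, with 1 library per genotype. The median gamma member (4.36 CPM in the H2AZ cKO, 5.21 CPM in H2AZ fl/fl) lies above the median beta member (1.38 and 1.77 CPM in the same order of genotypes), and Pcdhgc3 stands highest at 33.3 CPM in the H2AZ cKO against 36.9 CPM in H2AZ fl/fl.

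The gamma cluster held most of the family's counts, 73.0% (70.8 to 75.2) in the H2AZ cKO and 70.7% (68.7 to 72.7) in H2AZ fl/fl. Beta took 21.4% (19.4 to 23.5) and 22.7% (20.9 to 24.7), and alpha 5.55% (4.47 to 6.80) and 6.53% (5.48 to 7.72). The division of the family's counts among its clusters thus overlapped between the genotypes. Of the 21 gamma members 14 were below 1 and 7 above.

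Of its C-type genes, Pcdhgc3, known to bind Axin1 and dampen Wnt signalling, was the most read and had 290 counts (33.3 CPM) in the H2AZ cKO against 333 counts (36.9 CPM) in H2AZ fl/fl, a ratio of 0.901 (0.767 to 1.06). Pcdhgc4, known to be needed for the survival of cortical interneurons after birth, had 65 counts (7.46 CPM) in the H2AZ cKO against 100 counts (11.1 CPM) in H2AZ fl/fl, a ratio of 0.672 (0.484 to 0.928) and a log2 ratio of -0.52. Pcdhgc5, a gene known to come on later in brain development, had 17 counts in each library, a ratio of 1.03 (0.496 to 2.16). Only the interval of Pcdhgc4 lay below 1, and it overlaps those of Pcdhgc3 and Pcdhgc5. Genes of the ventral telencephalon, where cortical interneurons are born, were on the higher side. Of these markers 12 of 12 were above 1, beside 7443 of the 14586 genes at 1 CPM or more. They summed to 1889 CPM in the H2AZ cKO against 1451 CPM in H2AZ fl/fl. Their part in the ratio of Pcdhgc4 was not tested.

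The gamma A, gamma B and gamma C-type subgroups had ratios whose intervals overlap. Gamma A genes (11 members) stood at 457 counts in the H2AZ cKO against 562 in H2AZ fl/fl, a ratio of 0.841 (0.742 to 0.954), and gamma B genes (7 members) at 316 against 384, a ratio of 0.851 (0.731 to 0.991). The 3 C-type genes stood at 372 in the H2AZ cKO against 450 in H2AZ fl/fl, a ratio of 0.855 (0.744 to 0.983). Without Pcdhgc3, which held 25.3% of the gamma counts in the H2AZ cKO and 23.9% in H2AZ fl/fl, the cluster's ratio was 0.832 (0.760 to 0.911). The gamma ratio thus did not rest on its most read gene.

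Pcdhgb8 had the lowest log2 ratio of the 53 members on the log2(CPM + 1) scale. It had 7 counts (0.803 CPM) in the H2AZ cKO against 24 counts (2.66 CPM) in H2AZ fl/fl, a ratio of 0.302 (0.110 to 0.722) and a log2 ratio of -1.02. GENCODE M21 annotates it as a polymorphic pseudogene, and 9.18% of the 50-base windows of its variable exon occur identically in another member. In the authors' deposited table it had a fold of 0.293 and an adjusted p of 0.0226 and was the 1 member of 53 marked significant, where 0.677% of all genes were marked lower and 0.219% higher. The authors' p compares 1 column with 1 column and carries no replicate error. Pcdhgb4 had 19 counts in the H2AZ cKO against 36 in H2AZ fl/fl (0.546, 0.296 to 0.978), and Pcdhga4 had 26 against 47 (0.572, 0.340 to 0.943). Both were 1.5-fold lower, at log2 ratios of -0.65 and -0.64, with intervals whose upper ends lie just under 1. Of their annotated exon bases, 3157 in Pcdhga4 and 2224 in Pcdhgb4 are shared within the gamma cluster, the constant stretches included. In Pcdhgb1, which had the highest log2 ratio of the 53 members (0.46), 3154 exon bases are shared in this way. The part of these shared bases in the low ratio of Pcdhga4 and the high ratio of Pcdhgb1 was not tested.

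Other gamma genes had intervals that include 1. Pcdhgb6 had 106 counts (12.2 CPM) in the H2AZ cKO against 139 counts (15.4 CPM) in H2AZ fl/fl, a ratio of 0.789 (0.607 to 1.02), and Pcdhga12 had 74 against 92 (0.832, 0.604 to 1.14). Pcdhga11 was level at 71 in the H2AZ cKO against 73 in H2AZ fl/fl (1.01, 0.715 to 1.41), and Pcdhga9 at 36 against 37. On the higher side were Pcdhgb1 at 38 counts in the H2AZ cKO against 26 in H2AZ fl/fl (1.51, 0.894 to 2.59), Pcdhgb7 at 78 against 68 (1.19, 0.846 to 1.67), Pcdhga5 at 43 against 38 and Pcdhga8 at 28 against 26. Of the members not yet given, Pcdhga1 was at 9 in the H2AZ cKO against 17 in H2AZ fl/fl, Pcdhga2 at 35 against 45, Pcdhga3 at 49 against 69, Pcdhga6 at 38 against 58, Pcdhga7 at 48 against 60, Pcdhgb2 at 27 against 34 and Pcdhgb5 at 41 against 57. All 7 were lower, with intervals that include 1.

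Per kilobase of unshared exon, the order of the genes was close to the same in both libraries. Spearman's rho of these levels across the 53 members was 0.947, a description of genes that share 2 libraries. Pcdhgc3 led at 18.3 CPM per kilobase in the H2AZ cKO and 20.3 in H2AZ fl/fl, followed by Pcdhga11 at 6.49 in the H2AZ cKO and 6.45 in H2AZ fl/fl. Pcdhgb7 (4.91 in the H2AZ cKO and 4.14 in H2AZ fl/fl) and Pcdhgb6 (4.74 and 6.01 in the same order of genotypes) exchanged the third and the fourth place. The place of Pcdhga11 depends on the length used: only 1256 of its 4756 exon bases are unshared, while its whole count is kept. Over all exon bases it stood at 1.71 in the H2AZ cKO and 1.70 in H2AZ fl/fl, below Pcdhgb6 at 2.60 and 3.29. Pcdhgc3 still led, at 6.05 and 6.72. Median levels per kilobase of unshared exon in the H2AZ cKO and in H2AZ fl/fl were 1.67 and 1.94 for gamma members, 0.362 and 0.473 for beta members and 0.236 and 0.355 for alpha members. These medians depend on the length used too. Alpha and gamma counts may hold constant-exon reads whose bases are left out of the length, so their levels beside beta may be overstated. Pcdhac2, the first among alpha members, stood at 1.25 CPM per kilobase in the H2AZ cKO (rank 15 of the family) and 2.01 in H2AZ fl/fl (rank 11). Over all exon bases Pcdhac2 stood at 0.643 in the H2AZ cKO and 1.04 in H2AZ fl/fl.

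**Figure D4:**
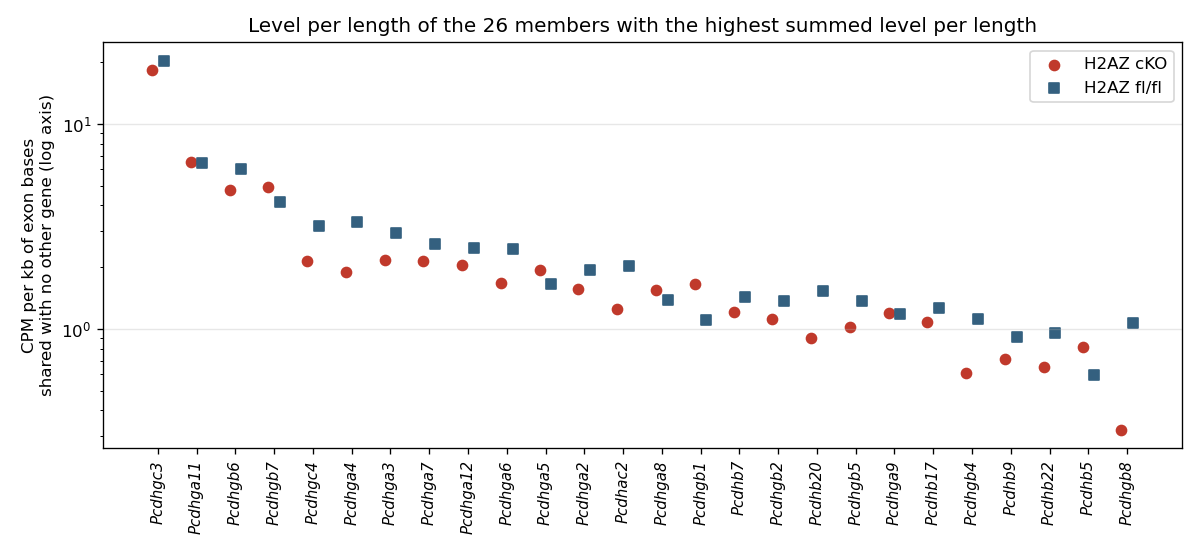
Level per kilobase of exon bases shared with no other gene, for the most highly read members ranked by summed level, in the H2AZ cKO (circles) and in H2AZ fl/fl (squares), on a log axis. Pcdhgc3 stands alone at 18.3 CPM per kilobase in the H2AZ cKO and 20.3 in H2AZ fl/fl, and most squares lie above their circles.

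Spearman's rho between a gene's place from the start of its cluster and its log2 ratio was -0.26 over 11 alpha, -0.26 over 21 beta and 0.10 over 21 gamma members, given as descriptions of genes that share their libraries. Identical stretches between members leave some reads without a clear owner. Of the variable exons (for beta genes the whole transcript), those of 9 alpha, 21 beta and 13 gamma members hold at least 1 window of 50 bases found in another member, and in 25 members over 5% of windows are such. The handling of reads with several matches is unknown here. Over the 28 members with at most 5% of such windows the family's ratio was 0.851 (0.785 to 0.922). The 11 beta members among them stood at 0.824 (0.667 to 1.02), an interval that includes 1, where all 21 gave one below 1.

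Genes beside the clusters had log2 ratios centred near 0. Of the 28 at 1 CPM or more that lie among the clusters or within 500000 bases of either end, 15 were above 1 and 13 below, and their log2 ratios had a median of 0.02. By total count the split was 11 above and 17 below with a median of -0.02, so its direction depends on the scaling. The 41 members at that level had a median of -0.25 and all 53 had -0.23. Pfdn1 was the highest neighbour with an interval above 1, at 766 counts in the H2AZ cKO against 596 in H2AZ fl/fl (1.33, 1.19 to 1.48), and Ankhd1 stood at 701 against 884 (0.820, 0.742 to 0.907). The noncoding 3222401L13Rik, which lies between the beta and gamma clusters, had 10 counts in the H2AZ cKO against 27 in H2AZ fl/fl, a ratio of 0.383 (0.165 to 0.817). Pcdh12, a protocadherin outside the clusters' promoter system, was at 40 in the H2AZ cKO against 28 in H2AZ fl/fl (1.48, 0.889 to 2.49), and the growth factor gene Hbegf at 51 against 40 (1.32, 0.855 to 2.05). Taf7, which lies between the beta and gamma clusters, was at 287 in the H2AZ cKO against 308 in H2AZ fl/fl (0.964, 0.818 to 1.14).

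Genes known to act on the clustered promoters lay on both sides of 1, more of them below it. Ctcf stood at a ratio of 1.02 (0.948 to 1.09), the cohesin subunit genes Rad21 at 1.04 (0.985 to 1.09) and Smc1a at 1.11 (1.05 to 1.18), the cohesin loader gene Mau2 at 0.875 (0.794 to 0.964), and Smchd1, a chromatin protein that represses these clusters, at 1.0 (0.907 to 1.10). The de novo DNA methyltransferase Dnmt3a was at 0.796 (0.738 to 0.859) and its relative Dnmt3b, which methylates clustered protocadherin promoters, at 73 counts in the H2AZ cKO against 63 in H2AZ fl/fl (1.20, 0.844 to 1.71). Tet1, which oxidises methylated cytosine, was at 0.787 (0.650 to 0.952), and Atf7ip, a partner of the H3K9 methyltransferase Setdb1, at 0.830 (0.772 to 0.893). Trim28, a corepressor that recruits Setdb1, was at 1.06 (1.03 to 1.10). Of 24 such genes 10 were above 1 and 14 below, 0 by 1.5-fold. Their median log2 ratio was -0.06, and -0.005 with the trend on length, GC and level removed. Of their intervals 2 lay above 1 and 9 below. Among all genes at 1 CPM or more, not matched for level, 12.6% of intervals lay above 1 and 11.2% below. By total count 8 were above 1 and 16 below.

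Genes for proteins that bind or carry signals from the clustered protocadherins lay around 1. Of 29, 17 were above 1 and 12 below, 0 by 1.5-fold. Their median log2 ratio was 0.02, and 5 intervals lay above 1 and 4 below. These counts are near the 12.6% above and 11.2% below among all genes at 1 CPM or more, not matched for level. By total count the split turned to 11 above and 18 below. The receptor kinase gene Ret was at 15 counts in the H2AZ cKO against 27 in H2AZ fl/fl (0.575, 0.284 to 1.12), the sorting nexin gene Snx2 at 1.32 (1.16 to 1.51), the protein kinase C gene Prkca at 0.771 (0.644 to 0.923) and Wasf3, of the WAVE actin complex, at 0.820 (0.708 to 0.949). Ptk2, the focal adhesion kinase that the inner tails inhibit, was at 0.976 (0.896 to 1.06).

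**Figure D5:**
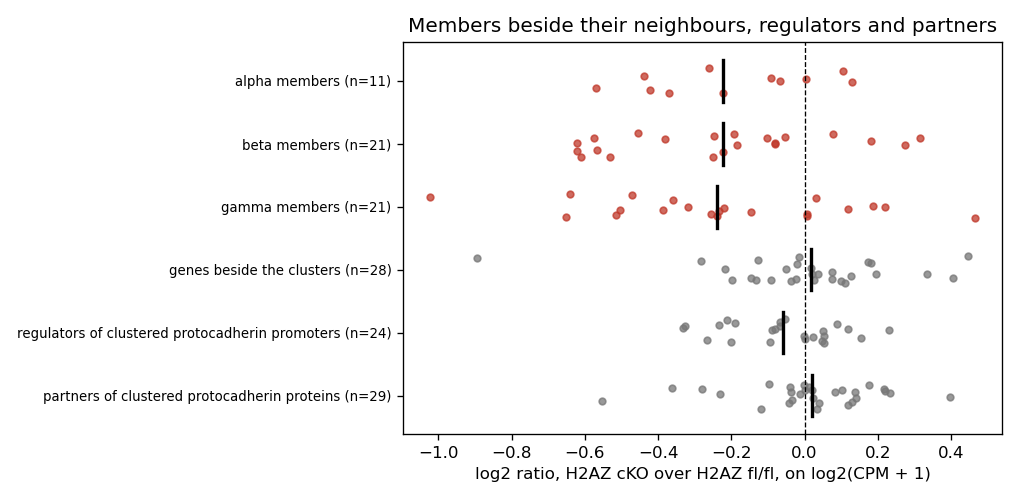
Log2 ratio of each gene, H2AZ cKO over H2AZ fl/fl on log2(CPM + 1), for all members of the 3 clusters and for the neighbours, promoter regulators and protein partners at 1 CPM or more, with black bars at the medians. The medians of the clusters are -0.22 for alpha, -0.22 for beta and -0.24 for gamma, against 0.02 for neighbours, -0.06 for regulators and 0.02 for partners, and by total count the medians of neighbours and partners are both -0.02.

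Cell type markers were compared because clustered protocadherins are mainly neuronal. The 18 neuronal markers together stood at 8675 CPM in the H2AZ cKO against 8530 CPM in H2AZ fl/fl. Tubb3, the most read of them, alone stood at 2336 CPM in the H2AZ cKO against 2165 CPM in H2AZ fl/fl. Of the 18 markers 11 were above 1 and 7 below, or 9 and 9 by total count. There were 3 intervals above 1 and 5 below, where 12.6% and 11.2% of all genes at 1 CPM or more, not matched for level, had such intervals. Their median log2 ratio was 0.03, and -0.01 with the trend on length, GC and level removed. Apical progenitor markers had 10 of 12 above 1 and intermediate progenitor markers 5 of 6. Markers of the diencephalon and hypothalamus were lower in 10 of 11 genes at 1 CPM or more and summed to 86.3 CPM in the H2AZ cKO against 150.9 CPM in H2AZ fl/fl, with Nkx2-4 and Rax at 0 in the H2AZ cKO. Erythroid markers were higher in 8 of 8 and summed to 691 CPM in the H2AZ cKO against 364 CPM in H2AZ fl/fl, and those of microglia and macrophages in 8 of 9 (47.3 CPM against 33.6 CPM). Endothelial markers were lower in 5 of 6 and meningeal ones in 4 of 5 (13.5 CPM in the H2AZ cKO against 16.7 CPM in H2AZ fl/fl). The part of these markers in the protocadherin ratios was not tested.

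The log2 ratio in these libraries also varied with transcript length, GC content and level over all genes. With that joint trend removed the family's summed ratio was 0.893, still below 1, and the clusters stood at 0.837 (alpha), 0.847 (beta) and 0.912 (gamma). The median log2 ratio of the 41 members at 1 CPM or more was then -0.14, and Pcdhgb8 was the 1 member still 1.5-fold lower, at a log2 ratio of -0.89.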

How the data were processed

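The deposited table holds read counts per Ensembl gene, CPM, the ratio (fold) and its log2, and p-values, for 1 column per genotype. The column headed WT was taken as H2AZ fl/fl, the only other genotype. Per the labels' protocols RNA was Trizol-extracted and 2 ug of total RNA went into an Illumina TruSeq RNA kit. The submitters' processing notes list HTSeq 0.6.0, TopHat2 2.0.12, Bowtie2 2.2.3 and mm9 without roles, while the deposited positions match GRCm38 (78.7% identical to GENCODE M21). The sources used here give neither counting mode nor strand. The deposited CPM equal counts times 1 constant per library, except at a count of 0. The authors' fold and log2 fold change are taken from these CPM. The test behind the authors' p-value is not stated.

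From the counts, TMM factors (edgeR 4.0.16, R 4.3.3), ratios with Clopper-Pearson intervals, and log2(CPM + 1) ratios were computed in Python 3.11.15 with scipy 1.17.1. DESeq2 1.42.0 served for size factors alone. With 1 library per genotype the genotypes were compared without a test. Reads carry no molecular identifiers and are not independent molecules, so intervals cover counting error only. Symbols matched 19112 of 19202 identifiers. The trend was a regression on cubic terms of log10 transcript length, GC and level over 14543 genes at 1 CPM or more, extended to members below that level. The interval was run on simulated counts drawn with counting error alone, as the interval assumes. That run cannot speak to duplicate reads or to spread between embryos. Members and lists were chosen with earlier results of these data known. Given with their counts are all C-type genes, members 1.5-fold apart or with an interval excluding 1, and the 3 most read of each cluster. Of each list up to 4 genes with the largest log2 ratio are named, plus Ctcf, Rad21, Smchd1, Dnmt3b, H2afz and Xist. Others were chosen after their values were seen. The value of 1 listed gene is not reported here, while its list's counts and median include it. Alternatives were other scalings, pseudocounts of 0.1 and 5 CPM, no minimum level or 5 CPM, 2-fold, leaving out the most read member or the C-type genes, and, added after seeing the data, the trend in sums and in single members, other scalings for the lists, members with few identical windows, and members with no gene on the opposite strand.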

Additional observations from a re-analysis of the deposited data

How the results depend on the processing

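The summed ratios of the family and of each cluster stayed below 1 in every alternative run, and scaling by total count, by DESeq2 size factors or as deposited moved the family's ratio of 0.822 to between 0.799 and 0.809. After removal of the trend with length, GC and level from the sums, added after seeing the data, the family's ratio was 0.893, above the upper end of its counting interval. Over members with no gene on the opposite strand, also added later, the gamma ratio was 0.778, below the lower end of its interval. The median log2 ratio of the family was -0.13 with a pseudocount of 5 CPM, -0.36 with a minimum level of 5 CPM and -0.14 without the trend, beside -0.25 as reported. The 6 members 1.5-fold lower became 11 with a pseudocount of 0.1 CPM, 0 with 5 CPM, 2 with a minimum level of 5 CPM, 1 at 2-fold and 1 without the trend. The count of members 1.5-fold higher was 0 in every alternative run, each with a pseudocount, which understates differences at low counts. By plain count ratio members passed 1.5-fold in both directions, such as Pcdhgb1 at 1.51 and Pcdhgb8 at 0.302. The median level per kilobase in the H2AZ cKO was 0.557 CPM over unshared exon bases and 0.418 over all exon bases. None of the members named by rule changed sign under the scalings, pseudocounts or trend removal. Lists near 0 did turn: by total count, neighbours went below 1 in 17 of 28 and partners in 18 of 29. Leaving out C-type genes could not be run for the beta cluster, which holds none. No paired analysis was possible because each genotype has 1 column. Depth limits single members most: with a median of 19 counts in the H2AZ cKO and 25 in H2AZ fl/fl, only members far apart have intervals that exclude 1, and differences between embryos are not covered.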

Other observations

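The log2 ratios of gamma B genes ran from -1.02 to 0.46, those of gamma A genes from -0.64 to 0.19 and those of gamma C-type genes from -0.52 to 0.03. Of the 53 members, 50 had a counting interval that holds the family's ratio of 0.822, and 3 did not. Intervals of this exact kind leave out at most 5% by construction, and less at low counts. The ratio also comes from these same members, so no expected number is set beside the 3. Of these 3, chosen after their values were seen, Pcdhgb8 lay below the ratio and Pcdhgb1 and Pcdhgb7 above it. Pcdhgb8 took 0.611% (0.246 to 1.26) of gamma counts in the H2AZ cKO and 1.72% (1.10 to 2.55) in H2AZ fl/fl. In the variable exons of the 7 gamma B genes, 2.67% (Pcdhgb7) to 17.9% (Pcdhgb2) of 50-base windows occur identically in another member, against 0% to 4.25% (Pcdhga8) in the gamma A genes. The part of such stretches in these ratios was not tested.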
